A study of Mus musculus with 10 samples.

Results

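*Zfp804b* and *Zfp804a* are a pair of paralogous mouse genes that encode large zinc finger proteins. Both were taken by symbol from the 52227 genes of the count table, as 2 genes of that total. *Zfp804b* was chosen by its level between genotypes, since earlier results of these data had shown it much lower in *Lmx1a-/-* cortical hem, and *Zfp804a* was chosen as its paralog. Therefore the levels of both genes between genotypes are given as a description without a test. RNA was sequenced from cortical hem (CH) that had been laser-captured at e13.5, with the captured tissue of 1 embryo per library. The groups were 5 wild-type embryos and 5 *Lmx1a-/-* embryos. The mutants were homozygous for *drJ*, a point mutation in the gene of the transcription factor Lmx1a, and the colony was on a mixed background of C57Bl6, FVB and CD1. The allele is present in every cell of the embryo, and the tissue is a mixture of cells, so fewer cells of a type and less RNA per cell cannot be told apart.

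The CH is a signaling center at the dorsal midline of the embryonic telencephalon, between the choroid plexus and the future hippocampus, and it secretes Wnt and Bmp ligands and gives rise to Cajal-Retzius (CR) cells. The proteins of the ZNF804 group carry a single C2H2 zinc finger near their N terminus, and most of their length has no known fold. Human *ZNF804A* is known as a locus associated with schizophrenia, and its protein has been linked to RNA binding and splicing, while much less is known about ZNF804B.

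Between 19145952 and 36462780 reads per library were counted on genes, and a gene was tested if 3 or more libraries had 10 or more counts of it, which held for 21664 genes. Of 14 CH markers, 14 were tested, and their summed level reached 2286 to 4328 normalized CPM (counts scaled to the size of the library) in wild-type and 2760 to 3896 in *Lmx1a-/-* libraries. The sums overlapped, but 5 of the 14 were lower and 1, *Lmx1a*, was higher (42.9% called, against 4.02% of all tested genes, FDR under 0.1 by edgeR's quasi-likelihood test), with a median log2 fold change of -0.43. The lower ones included *Msx1* (log2 fold change -2.11), a homeobox gene, and the ligand genes *Wnt2b* (-1.02) and *Bmp7* (-0.91). *Lmx1a* itself was transcribed in both genotypes (71.2 ± 18.2 CPM in wild type and 114 ± 21 in mutants, SD, n = 5 embryos each, log2 fold change of 0.68 with SE 0.17, FDR = 0.0658 by edgeR's quasi-likelihood test), and without wild-type embryo 1 or 4 or *Lmx1a-/-* embryo 4 or 5 the FDR lay between 0.102 and 0.157. Counts per gene do not show the point mutation. *Xist*, the RNA of the inactive X chromosome, reached 1.01 CPM in wild-type embryo 1 and no more than 1.15 CPM in the mutants, against up to 5169 CPM in the other wild-type embryos. Y-linked transcripts had the opposite pattern, so genotype and sex were largely confounded, with wild-type embryo 1 as the exception.

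Both genes have the same exon plan. *Zfp804b* (ENSMUSG00000092094) lies on the minus strand of chromosome 5 of GRCm38, from 6769010 to 7344756, and spans 575.7 kb. *Zfp804a* (ENSMUSG00000070866) lies on the plus strand of chromosome 2, from 82053222 to 82259879, and spans 206.7 kb. Each has 4 exons, and its first intron takes up most of the gene, 467.7 kb (81.2%) in *Zfp804b* and 181.9 kb (88.0%) in *Zfp804a*. Exon 2 has 144 bases and exon 3 has 131 bases in both genes, whereas the last exon, of 3669 and 3665 bases, holds 90.5% of the coding bases of *Zfp804b* and 89.3% of those of *Zfp804a*. The coding sequences have 1343 and 1200 codons.

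The finger is the stretch by which the pair is recognized, and its coding bases are shown for that reason. A search of the translated coding sequences for the spacing of cysteines and histidines of a C2H2 finger found 1 match in each gene, in exon 2, starting at codon 58 of *Zfp804b* and codon 59 of *Zfp804a*. The bases below come from the GENCODE M21 transcripts on GRCm38, 5′ to 3′ on the coding strand, and capitals mark the codons of the paired cysteines and histidines.
Zfp804b, chr5:6876392-6876460, minus strand: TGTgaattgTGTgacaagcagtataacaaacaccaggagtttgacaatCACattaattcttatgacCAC
Zfp804a, chr2:82235861-82235929, plus strand: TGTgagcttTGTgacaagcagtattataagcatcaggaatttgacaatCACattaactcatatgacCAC

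Over these 69 bases the paralogs share 59, an identity of 85.5%. Identity was 79.9% over exon 2, 73.3% over exon 3 and 60.2% over the last exon, which carries most of the coding sequence. Over the aligned coding sequences 2159 of 3362 bases were the same (64.2%). The longest run shared by the main transcripts without a mismatch was 20 bases on the same strand and 11 bases between opposite strands.

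The sequence near the RefSeq starts also differed. RefSeq windows of GRCm38.p6, set around its own start of each gene, cover chr2:82053408-82053707 for *Zfp804a* and chr5:7344329-7344628 for *Zfp804b*. Both lie wholly within exon 1 of the GENCODE models given above, downstream of the GENCODE starts, so the values describe exon 1 sequence of those models. In these windows *Zfp804a* had a GC content of 79.3% with 45 CpG dinucleotides and *Zfp804b* one of 63.3% with 17. Over the 32851 windows of the table the medians were 52.7% and 7, and 1.9% of windows had as many CpG as *Zfp804a*, against 31.4% for *Zfp804b*. The letters TAATTA, a core read by many homeodomain proteins that is the same on both strands, were in neither window and in 5.3% of all windows.

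*Zfp804b* was expressed in every wild-type CH and was close to the limit of detection in every *Lmx1a-/-* CH. Wild-type embryos 1 to 5 had 565, 560, 422, 366 and 705 counts of *Zfp804b*. *Lmx1a-/-* embryos 1 to 5 had 3, 5, 27, 15 and 15 counts. The genotypes did not overlap in any library.

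Normalized levels of *Zfp804b* were 21.1, 25.3, 12.4, 19.0 and 26.0 CPM across wild-type embryos 1 to 5 (20.8 ± 5.5, SD, n = 5). They were 0.0997, 0.272, 0.92, 0.415 and 0.522 CPM across *Lmx1a-/-* embryos 1 to 5 (0.446 ± 0.309, SD, n = 5). The mean was thus 46.6-fold higher in wild type, and the lowest wild-type embryo was still 13.5-fold above the highest mutant. The fitted log2 fold change was -5.51 (SE 0.40), and 9 of the 21664 genes had a lower one, led by *Xist* at -12.34. Of all genes, 870 (4.02%) passed an FDR of 0.1 with edgeR's quasi-likelihood test, 497 of them lower (2.29%) and 373 higher (1.72%). Groups without overlap were found for 961 genes (4.44%), with the mutants below in 491 (2.27%) and above in 470 (2.17%). Because the gene was chosen for this difference, nothing is read from these shares.

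*Zfp804a* was expressed at a low level in both genotypes. It had 88, 31, 53, 18 and 43 counts in wild-type embryos 1 to 5, and 44, 65, 4, 20 and 71 counts in *Lmx1a-/-* embryos 1 to 5. The corresponding levels were 3.28, 1.4, 1.56, 0.934 and 1.59 CPM in wild type (1.75 ± 0.896, SD, n = 5) and 1.46, 3.53, 0.136, 0.554 and 2.47 CPM in the mutants (1.63 ± 1.39, SD, n = 5). The genotypes overlapped over most of their range, and the highest and the lowest library were both mutants.

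The log2 fold change of *Zfp804a* was -0.13 with an SE of 0.63. That SE is wider than the change, so a moderate difference in either direction could not be seen at these counts. Mutant embryos differed from each other by up to 25.9-fold in *Zfp804a*, and wild-type embryos by up to 3.52-fold. *Zfp804b* varied less in wild type, where the highest embryo was 2.1-fold above the lowest, and by 9.22-fold among the mutants, whose counts were few. Leaving out 1 embryo at a time moved the log2 fold change of *Zfp804a* between -0.62 and 0.23, with the sign depending on the embryo, and that of *Zfp804b* between -5.95 and -5.24.

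**Figure D1:**
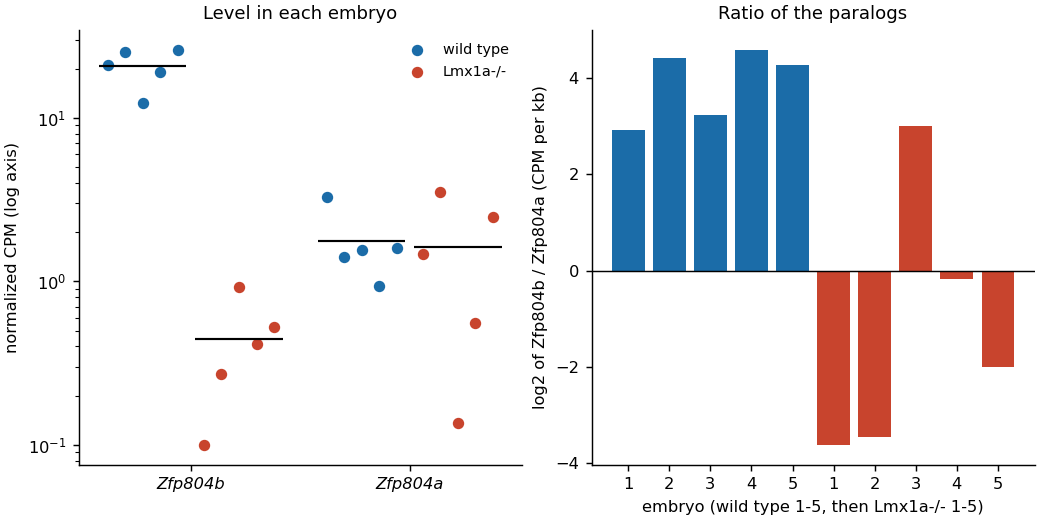
The left panel plots normalized CPM on a log axis for each of 5 wild-type (blue) and 5 *Lmx1a-/-* (red) embryos, with black lines at the means. The right panel gives, for each embryo, the log2 ratio of *Zfp804b* to *Zfp804a* in CPM per kb of exon. *Zfp804b* separates the genotypes without overlap (means 20.8 and 0.446 CPM), *Zfp804a* does not (1.75 and 1.63 CPM), and the ratio is above 0 in 5 wild-type embryos and in mutant embryo 3 only.

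To compare the paralogs with each other, levels were divided by the length of all annotated exons, 4430 bases for *Zfp804b* and 5245 for *Zfp804a*. In wild-type CH *Zfp804b* then reached 4.69 ± 1.24 CPM per kb and *Zfp804a* 0.334 ± 0.171 (SD, n = 5). Of the 21649 tested genes with a length, 34.4% were at or above the mean wild-type level of *Zfp804b* and 86.1% at or above that of *Zfp804a*. In *Lmx1a-/-* CH these shares were 96.4% and 86.0%, with 0.101 ± 0.0697 CPM per kb for *Zfp804b* and 0.311 ± 0.265 for *Zfp804a*. The predominant paralog of the wild-type CH was therefore *Zfp804b*, and in the mutants both were among the weakly expressed genes.

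Within each embryo the ratio of *Zfp804b* to *Zfp804a* per kb was 7.6, 21.4, 9.43, 24.1 and 19.4 in wild-type embryos 1 to 5. It was 0.0807, 0.0911, 7.99, 0.888 and 0.25 in *Lmx1a-/-* embryos 1 to 5. *Zfp804b* was the higher paralog in 5 of 5 wild-type and 1 of 5 mutant embryos. The exception was mutant embryo 3, which had the most *Zfp804b* and the least *Zfp804a* of its group, with 27 and 4 counts. The mean log2 ratio was 3.89 ± 0.75 in wild type and -1.25 ± 2.75 in mutants (SD, n = 5), and the fitted log2 fold changes of the paralogs differed by -5.38.

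Sums of marker genes were set beside these levels as a description. Such sums do not separate the number of cells from the RNA per cell. The lowest wild-type level of *Zfp804b*, in embryo 3, went with the lowest summed level of the CH markers (2286 CPM, against 3195 or more in the other wild-type embryos). The same embryo had the lowest sum of 12 choroid plexus markers, 98.6 CPM, where the others ranged from 207 to 472 and the mutants from 133 to 221. Among the mutants, embryo 4 had the highest sum of CH markers, 3896 CPM, with 0.415 CPM of *Zfp804b*. Mutant embryo 3, with the most *Zfp804b* of its group (0.92 CPM), had a CH sum of 3509 CPM. Without wild-type embryo 3 the log2 fold change of *Zfp804b* was -5.65, and with the choroid plexus list as a covariate it was -4.88.

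Of the choroid plexus markers 11 were tested, and 2 were lower in the mutants (18.2% called, against 4.02% of all genes). *Ttr*, the defining transcript of that epithelium, was at 78.3 ± 66.9 and 7.23 ± 5.94 CPM in wild-type and mutant libraries (SD, n = 5). Wild-type embryo 3, at 5.74 CPM, lay within the mutant range of 1.14 to 15.1 CPM. Over the 11 tested markers the median log2 fold change was -1.03, with values from -3.42 (*Ttr*) to 0.21 (*Aqp1*). Of 13 CR cell markers 12 were tested, with 5 lower and 1 higher (50.0% called), and their sum was 638 to 926 CPM in wild type and 356 to 562 CPM in mutants, without overlap. Of 9 markers of cortical neuroepithelium 3 were higher (33.3% called), with sums of 552 to 1026 and 993 to 1320 CPM. The part of these cell types in the level of *Zfp804b* was not tested.

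Neuron markers summed to 859 to 1394 CPM in wild type and 968 to 1485 CPM in mutants, with overlap. Markers of endothelium (25.2 to 89.4 and 23.3 to 62.3 CPM) and of microglia (15.7 to 35.5 and 16.6 to 32.8 CPM) overlapped between genotypes, as did those of meninges and mesenchyme (285 to 878 and 224 to 482 CPM). Of the 8 meninges and mesenchyme markers 2 were lower (25.0% called, against 4.02% of all genes). Red blood cell transcripts summed to 632 to 1473 CPM in wild type and 267 to 573 CPM in mutants, without overlap. However, of the 8 tested genes of that list 0 were called (0.0%, against 4.02% of all genes). Their median log2 fold change was -0.91, and *Alas2* went the other way (0.26). No gene of these lists had 0 counts in every library.

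Among libraries with Y-linked transcripts, wild-type embryo 1 could be set against the 5 mutants. The log2 fold change was then -5.54 for *Zfp804b* and -1.04 for *Zfp804a*. Wild-type embryo 1 had the highest *Zfp804a* of its genotype, and the comparison has 1 embryo on its wild-type side. With *Xist* as a covariate the change of *Zfp804a* was -1.19. Of the 18 called genes named here besides the pair, 16 lost their call with that covariate, all but *Tex47* and *Slc17a8*, and 12 among libraries with Y-linked transcripts. The fitted changes moved little in several of the 16, such as *Frzb* (1.95 and, with the covariate, 1.96), *Pde4b* (1.40 and 1.41), *Pde1a* (-1.44 and -1.39) and *Gm32926* (-2.42 and -2.49). That of *Cdk14* moved more, from -0.38 to -0.27. Only wild-type embryo 1 breaks the confounding of genotype and sex, so these fits cannot tell them apart. The part of sex in the lost calls was not tested.

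The first intron of *Zfp804b* holds 6 further annotated features, 3 on each strand, and all 6 had every wild-type library above every mutant library. Over all tested genes the share with that pattern was 2.27%. Except for *Tex47*, which the rule for neighbors names, these features were picked after their values had been seen, so they are described without a test. The strand setting of the read counting is not given in the sources used here, and reads from a feature and from a transcript across it on the other strand cannot be told apart. For the 3 features on the strand of *Zfp804b*, reads of unspliced *Zfp804b* RNA cannot be told apart from their own under any setting. Whether these counts come from separate transcripts was not tested.

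*Tex47*, a protein-coding gene known for its transcripts in testis, lies 40.6 kb into *Zfp804b* on the opposite strand, at chr5:7304119-7311491. Its levels were 12.5, 23.9, 7.79, 19.0 and 25.3 CPM across wild-type embryos 1 to 5 (17.7 ± 7.46, SD, n = 5). In *Lmx1a-/-* embryos 1 to 5 it stood at 0.0332, 0.652, 1.09, 0.914 and 0.174 CPM (0.573 ± 0.458). Its wild-type level was thus close to that of the gene around it, between 59.5% (embryo 1) and 100% (embryo 4) of the *Zfp804b* level in the same library. It fell by 4.93 on the log2 scale (SE 0.57, FDR = 0.00088 by edgeR's quasi-likelihood test). Since it lies inside the gene chosen for this contrast, that call is not independent of *Zfp804b*.

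Of the features on the strand of *Zfp804b*, *Gm42597*, annotated as to be experimentally tested, had the highest mean CPM. It lies 82.4 kb into the gene and had 4.89, 12.4, 2.15, 7.73 and 10.2 CPM in wild type, against 0.214 ± 0.219 CPM in mutants (SD, n = 5), with a log2 fold change of -5.03 (SE 0.68). *Gm42598*, of the same annotation class, was at 2.0 ± 1.4 and 0.108 ± 0.0632 CPM (log2 fold change -4.16, SE 0.69). *Gm24525*, a predicted small nuclear RNA at 166.9 kb, had 63 counts in all wild-type and 3 in all mutant libraries.

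The remaining features are processed pseudogenes on the opposite strand. *Gm43841*, 68.4 kb into the gene, was at 1.53 ± 1.15 against 0.0807 ± 0.0244 CPM (log2 fold change -4.13, SE 0.72). *Tubb4b-ps1*, at 165.4 kb, differed far less, with 3.46 ± 0.36 and 1.65 ± 0.192 CPM (log2 fold change -1.07, SE 0.22). It copies the tubulin gene *Tubb4b*, and its value is uncertain because reads of the parent gene may be counted there. In *Zfp804a* the single feature inside the gene, the pseudogene *Gm13677*, had 3 counts in wild type and 6 in mutants and was not tested.

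**Figure D2:**
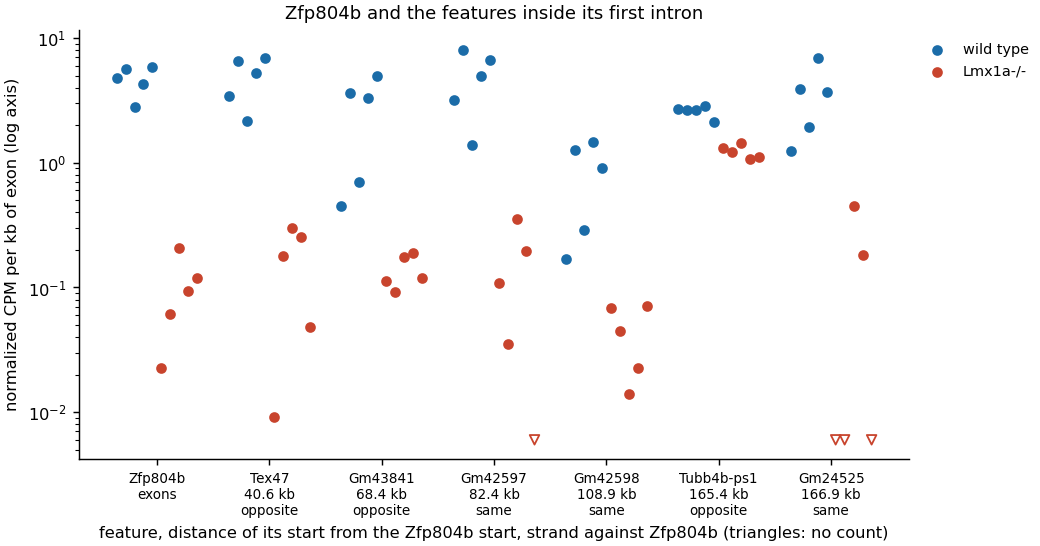
Normalized CPM per kb of exon on a log axis, for the exons of *Zfp804b* and the 6 features in its first intron, ordered by the distance of their start from the start of *Zfp804b* and labeled with their strand against it. Points are the 5 wild-type (blue) and 5 *Lmx1a-/-* (red) embryos, and open triangles at the bottom are libraries with no count. The genotypes are apart for every feature, least for *Tubb4b-ps1* (3.46 and 1.65 CPM before division by length).

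Most protein-coding genes in and around *Zfp804b* did not pass the test. Of 22 protein-coding genes within 2 Mb, 21 were tested, and 2 were lower (*Tex47* and *Cdk14*) and 19 did not pass (9.52% called, against 4.02% of all genes). *Tex47* lies inside the chosen gene and its call is not independent of it, so outside *Zfp804b* only *Cdk14* passed. Their median log2 fold change was 0.00, and that of all tested genes was -0.005. *Cdk14*, which encodes a cyclin-dependent kinase that acts in Wnt signaling, lies 1348.7 kb away and went from 71.2 ± 4.69 to 54.8 ± 1.01 CPM (log2 fold change of -0.38 with SE 0.07, FDR = 0.0149 by edgeR's quasi-likelihood test). With the choroid plexus list as a covariate its log2 fold change was -0.33, with an FDR of 0.174.

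The nearest tested genes outside *Zfp804b* gave no call. *Steap4*, a metalloreductase gene 615.7 kb away, was at 0.607 ± 0.579 against 0.166 ± 0.302 CPM (log2 fold change of -1.82 with SE 1.16, FDR = 0.476 by edgeR's quasi-likelihood test). *Sri*, which encodes the calcium-binding protein sorcin, lies 701.3 kb away and was at 43.4 ± 2.71 and 38.0 ± 8.82 CPM (log2 fold change -0.19, SE 0.14, FDR = 0.54). *Adam22*, a receptor gene for the secreted protein Lgi1, lies 727.6 kb away and was at 55.0 ± 7.62 and 55.4 ± 7.93 CPM, and its log2 fold change was 0.01 (SE 0.12, FDR = 0.978).

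Around *Zfp804a* there were 19 protein-coding genes within 2 Mb, of which 9 were tested. Among them 1 was lower, 1 was higher and 7 did not pass (22.2% called, against 4.02% of all genes). Their median log2 fold change was -0.06. *Pde1a*, a calmodulin-dependent phosphodiesterase gene 1923.8 kb away, fell from 24.1 ± 9.39 to 8.86 ± 1.35 CPM (log2 fold change of -1.44 with SE 0.24, FDR = 0.00765 by edgeR's quasi-likelihood test), and with the choroid plexus list as a covariate its log2 fold change was -0.73 with an FDR of 0.106. *Frzb*, which encodes a secreted Wnt antagonist, lies 1605.6 kb away and rose from 10.3 ± 3.74 to 39.9 ± 4.83 CPM (log2 fold change of 1.95, SE 0.22, FDR = 0.000665). The one gene within 1 Mb, *Fsip2*, did not reach the count minimum.

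**Figure D3:**
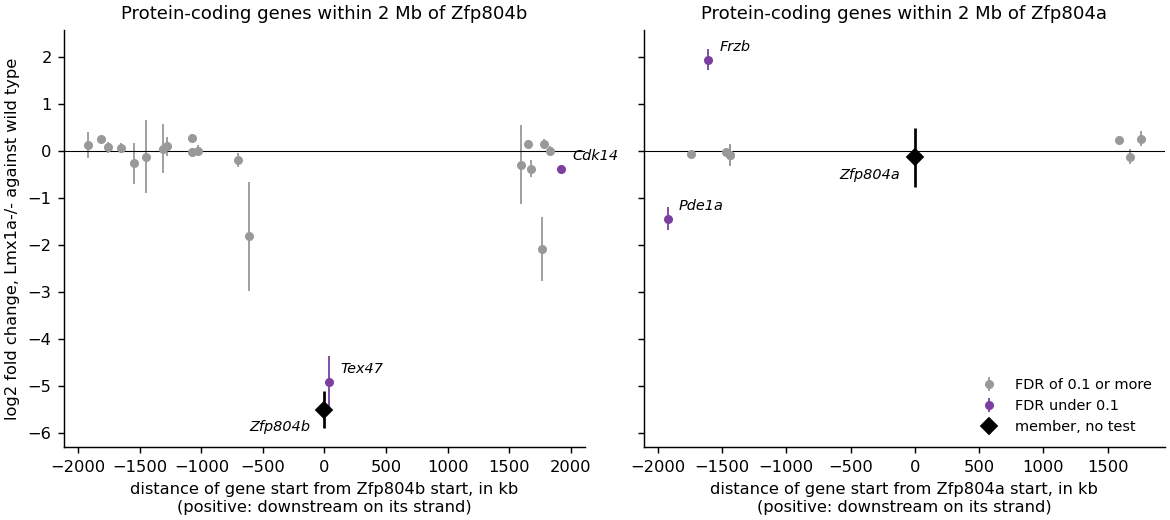
Log2 fold change (*Lmx1a-/-* against wild type, bars ± SE) of tested protein-coding genes within 2 Mb of *Zfp804b* (left) and *Zfp804a* (right), against the distance of their start in kb. Purple points have an FDR under 0.1, gray points do not, and the black diamond is the member itself, which was not tested. Beside *Zfp804b*, the one gene of similar change is *Tex47* at -4.93, which lies inside it.

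The known biology of human ZNF804A gave a list of 9 mouse genes, of proteins reported to bind it and transcripts reported to respond to it. Of the 7 that were tested, 1 was higher and 6 did not pass (14.3% called, against 4.02% of all genes). The median log2 fold change was -0.06. The one that passed was *Pde4b*, a cAMP phosphodiesterase gene, which rose without overlap, from 15.1 ± 1.84 to 39.9 ± 7.2 CPM (log2 fold change of 1.40 with SE 0.14, FDR = 0.000301 by edgeR's quasi-likelihood test).

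Of the binding partners, *Rpsa*, a gene of the small ribosomal subunit, was at 240 ± 41.3 and 267 ± 36.5 CPM (log2 fold change 0.16, SE 0.12). The splicing regulators *Rbfox1* and *Rbfox2* had log2 fold changes of -0.11 (SE 0.30) and -0.28 (SE 0.10). *Rbfox2* was at 135 ± 14.2 and 111 ± 13 CPM with an edgeR quasi-likelihood FDR of 0.169, which became 0.089 without wild-type embryo 5. *Atxn1*, the ataxin 1 gene, and *Nt5c2*, a nucleotidase gene, had log2 fold changes of -0.07 (SE 0.19) and 0.04 (SE 0.09).

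Of the responders, *Drd2*, a dopamine receptor gene, averaged 0.239 and 0.076 CPM and *Prss16*, a protease gene, had at most 3 counts in a library, and neither was tested.

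A further list held matrin-type and U1-type zinc finger genes, whose fingers are of the RNA-binding kind, and *Gpatch8*, the third gene of the ZNF804 group. Of 24 listed genes 23 were matched and tested, with 1 lower, 1 higher and 21 not past the threshold. The share called was 8.7%, against 4.02% of all genes, and the median log2 fold change was 0.09. *Sf3a2*, of the U2 splicing complex, fell from 9.35 ± 1.54 to 5.17 ± 1.18 CPM (log2 fold change of -0.85 with SE 0.20, FDR = 0.043 by edgeR's quasi-likelihood test), and the FDR was 0.106 without wild-type embryo 2 and also without *Lmx1a-/-* embryo 4. *Zmat1* rose from 19.0 ± 1.18 to 27.4 ± 6.09 CPM (log2 fold change of 0.52, SE 0.15, FDR = 0.0866), and left the threshold when any wild-type embryo or *Lmx1a-/-* embryo 2, 4 or 5 was left out (FDR 0.113 to 0.196).

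*Gpatch8* was well expressed, at 141 ± 9.46 and 175 ± 34.1 CPM in wild-type and mutant CH, with a log2 fold change of 0.31 (SE 0.12). Its edgeR quasi-likelihood FDR was 0.195, and 0.0861 without *Lmx1a-/-* embryo 1. Of these 3 genes it had the highest CPM and *Zfp804a* the lowest in wild-type libraries, without division by length.

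Most other genes whose symbol starts with Zfp, a prefix also given to pseudogenes and opposite-strand transcripts, had small differences. Of 372 tested, 4 were lower, 10 were higher and 358 did not pass. The share called was 3.76%, close to the 4.02% of all genes, and the median log2 fold change was 0.10. Fitted values ranged from -2.26 (*Zfp750*) to 1.61 (*Zfp92*), and *Zfp804b* at -5.51 lay outside that range while *Zfp804a* at -0.13 lay inside it.

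The lower Zfp genes with the smallest p were *Zfp36l2*, *Zfp521* and *Zfp575*. *Zfp36l2*, an mRNA decay factor with another kind of finger, fell from 25.8 ± 3.6 to 14.5 ± 2.01 CPM (log2 fold change of -0.83 with SE 0.13, FDR = 0.00574 by edgeR's quasi-likelihood test). *Zfp521*, a transcription co-factor of neural progenitors, fell from 382 ± 70.4 to 261 ± 39.5 CPM (log2 fold change -0.55, SE 0.13, FDR = 0.0514), with an FDR of 0.106 to 0.121 without wild-type embryo 1 or 2 or *Lmx1a-/-* embryo 5. *Zfp575* was at 2.22 and 0.724 CPM (log2 fold change -1.61, SE 0.41, FDR = 0.0633), and its FDR was 0.102 to 0.137 without wild-type embryo 1, 2, 3 or 4 or *Lmx1a-/-* embryo 1, 2, 4 or 5.

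The higher ones were *Zfp945*, *Zfp57*, which encodes a factor that maintains imprints, and *Zfp2*. Their log2 fold changes were 0.40 (SE 0.07), 0.49 (SE 0.09) and 0.38 (SE 0.08), with edgeR quasi-likelihood FDR of 0.00892, 0.0163 and 0.0327.

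**Figure D4:**
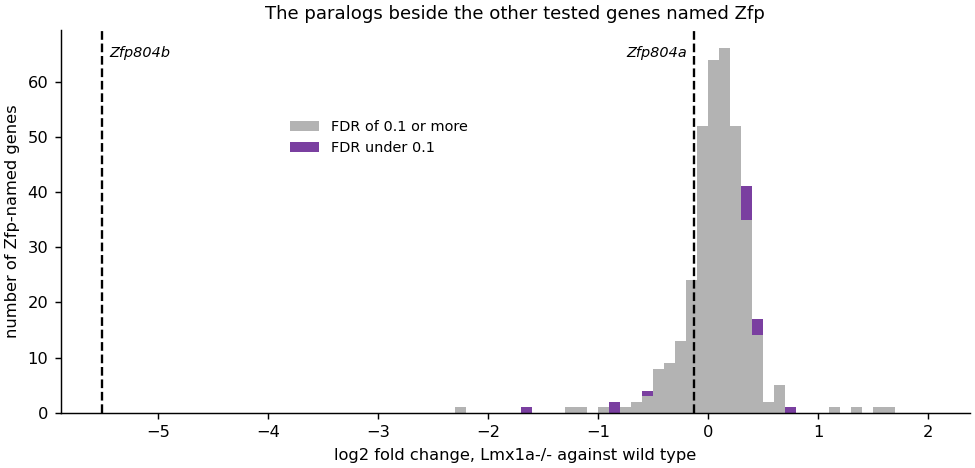
Histogram of log2 fold change (*Lmx1a-/-* against wild type) over the 372 tested genes named Zfp other than the pair, in purple where the FDR was under 0.1 (14 genes). Dashed lines mark *Zfp804b* at -5.51, beyond the lowest of the 372 at -2.26, and *Zfp804a* at -0.13.

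The genes whose pattern was most like that of each paralog were found by Pearson's r of log2(normalized CPM + 0.5) over the 10 libraries, among tested genes with a mean of at least 1 CPM. All genes of a library share its depth, genotype and capture, so r is a description. For *Zfp804b* the 5 genes were *Gm32926* (r 0.982), *Tex47* (0.982), *Slc17a8* (0.976), *4931422A03Rik* (0.975) and *Gm45324* (0.974). All 5 were lower in the mutants without overlap, with log2 fold changes of -2.42, -4.93, -3.51, -2.24 and -2.56, which is largely what this r ranks.

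*Slc17a8*, a vesicular glutamate transporter gene, was at 22.9 ± 5.51 and 2.01 ± 0.665 CPM in wild-type and mutant CH (SD, n = 5). After each genotype mean was subtracted, its r with *Zfp804b* was 0.330, against 0.774 for *Tex47*, 0.827 for *Gm45324*, 0.715 for *4931422A03Rik* and 0.587 for *Gm32926*. Between 2 and 5 of these genes remained among the first 5 when 1 embryo was left out, with 2 without *Lmx1a-/-* embryo 3 and 3 without wild-type embryo 2 or 3 or *Lmx1a-/-* embryo 1 or 2.

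The genes most like *Zfp804a* were others. They were *Zfp366* (r 0.965), *Ppp2r2c* (0.934), *Rbm19* (0.921), *Ubqln2* (0.910) and *Ttc9* (0.906), and their edgeR quasi-likelihood FDR between genotypes lay between 0.844 and 0.979. *Zfp366*, a zinc finger gene on chromosome 13, was at 3.43 ± 1.87 and 3.04 ± 1.68 CPM. Like *Zfp804a* it was lowest in *Lmx1a-/-* embryo 3, and highest in embryo 1 among wild types and in embryo 2 among mutants. Over all libraries *Zfp366* peaked in wild-type embryo 1 (6.61 CPM) and *Zfp804a* in *Lmx1a-/-* embryo 2 (3.53 CPM). *Ppp2r2c*, which encodes a regulatory subunit of protein phosphatase 2A, was at 1.95 ± 1.43 and 1.61 ± 1.33 CPM.

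Subtracting the genotype means changed these r little, to 0.965, 0.932, 0.925, 0.906 and 0.942. They rest on the spread between embryos of the same genotype, with 4 to 88 counts of *Zfp804a* per library. When 1 embryo was left out, between 1 and 4 of the 5 genes remained, with 1 without *Lmx1a-/-* embryo 2, 2 without *Lmx1a-/-* embryo 1, and 3 without wild-type embryo 1, 3, 4 or 5 or *Lmx1a-/-* embryo 3 or 4.

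**Figure D5:**
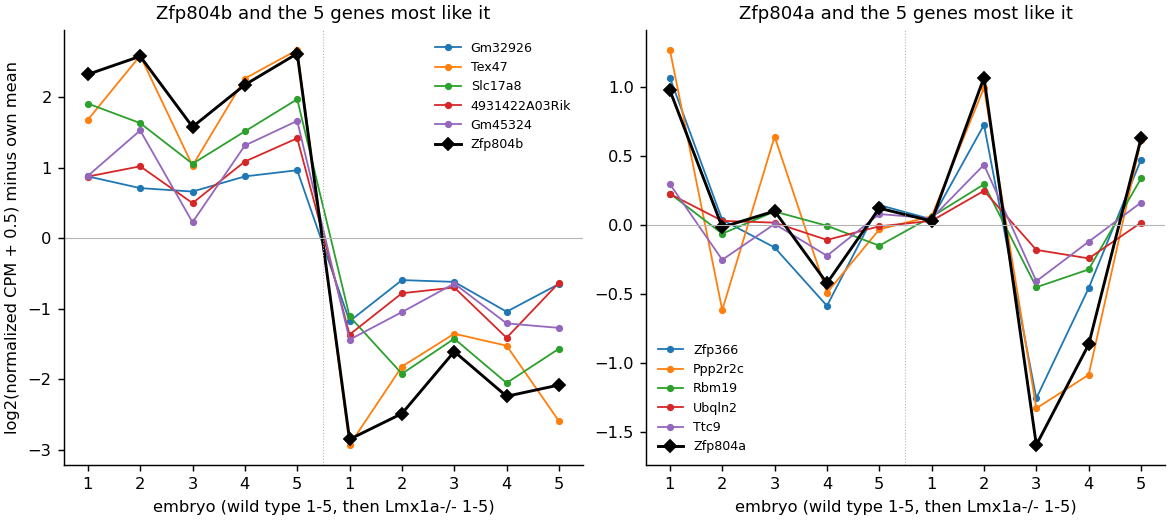
Log2(normalized CPM + 0.5) minus the mean of the gene over 10 libraries, for *Zfp804b* (left) and *Zfp804a* (right) in black with the 5 genes most like each in color. Libraries run along the horizontal axis, wild type then *Lmx1a-/-*, and lines only link the points of a gene. The left genes step down between genotypes, and the right genes differ between embryos of one genotype, with *Zfp804a* lowest in mutant embryo 3.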

How the data were processed

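RNA-seq libraries of laser-captured CH were made with a SMARTER mRNA kit. Per the authors, Trimmomatic, STAR 2.7.1a (GRCm38, Ensembl annotation) and HTSeq 0.11.2 were run, and the deposited values are raw counts per gene. The table had 52508 rows, of which 281 exact repeats were dropped, and mitochondrial genes took 20.6% to 27.6% of a library. Positions and exon lengths are those of GENCODE M21, whereas the counts used another release.

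Genes that reached 10 counts in 3 or more libraries were scaled by TMM and compared over all 10 libraries with edgeR 4.0.16 (quasi-likelihood test, R 4.3.3), with Benjamini-Hochberg adjustment over all tested genes and an FDR under 0.1 as the threshold. CPM are TMM-scaled, and errors are SD over embryos. Members and lists were chosen with earlier results of these data known. Named were tested neighbors within 1 Mb, called neighbors within 2 Mb, genes of the ZNF804A list (an item of it is not reported here), called genes of the matrin list and *Gpatch8*, the 3 lower and 3 higher called Zfp genes of smallest p, the 5 genes most like each member, and *Lmx1a*. Alternatives were the likelihood ratio test, DESeq2 1.42.0, other scaling and filters, a replicate block, *Xist* or the choroid plexus list as covariate, libraries with Y-linked transcripts only, an FDR of 0.05, and each embryo left out. The paper describes the wild-type embryos as littermates of the mutants, but the labels do not say which embryos shared a litter.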

Additional observations from a re-analysis of the deposited data

Results flagged for a closer look

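In groups of 5 embryos, a highest or lowest value was singled out when its gap to the nearest other value, divided by the whole range, was above 0.71 (Dixon's 95% value). Of 80 groups over 40 genes 5 met this, and chance gives about 1 in 20 groups. *Zfp804a* in wild-type embryo 1 was at 3.28 CPM, where the other wild-type embryos had 0.934 to 1.59. *Tubb4b-ps1*, a pseudogene inside *Zfp804b*, was at 2.84 CPM in wild-type embryo 5 and at 3.53 to 3.79 in the others. *Steap4* was at 0.696 CPM in *Lmx1a-/-* embryo 5 and at 0 to 0.136 in the other mutants. *Adam22* was at 68.4 CPM in wild-type embryo 2 and at 50.4 to 54.0 in the others. *Zfp945* was at 83.6 CPM in *Lmx1a-/-* embryo 5 and at 75.6 to 77.5 in the other mutants.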

How the results depend on the processing

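The 870 calls became 1766 with DESeq2, 1360 with the likelihood ratio test, 448 at an FDR of 0.05, 274 with the choroid plexus covariate, 130 in libraries with Y-linked transcripts and 31 with the *Xist* covariate, and were 451 to 1059 with 1 embryo left out (451 to 578 without wild-type embryo 1 or 2 or *Lmx1a-/-* embryo 2, 4 or 5). For *Zfp804b* (log2 fold change -5.51) the choroid plexus covariate gave -4.88 and leaving out 1 embryo -5.95 to -5.24. For *Zfp804a* (-0.13) the *Xist* covariate gave -1.19, Y-linked libraries alone -1.04, and leaving out 1 embryo -0.62 to 0.23. The difference of the paralogs (-5.38) was -4.30 with the *Xist* covariate and -6.12 to -4.79 with 1 embryo left out. The 4 calls among neighbors became 1 with the *Xist* and 2 with the choroid plexus covariate (4 to 6 with 1 embryo left out), and the 1 call among ZNF804A partners became 0 with the *Xist* covariate (1 to 2, with 2 without wild-type embryo 5). Of the matrin-type genes, 2 were called, and 0 with the *Xist* or choroid plexus covariate or in Y-linked libraries, 1 at an FDR of 0.05, and 0 to 3 with 1 embryo left out (0 without wild-type embryo 2 or *Lmx1a-/-* embryo 4, 1 without wild-type embryo 1, 3, 4 or 5 or *Lmx1a-/-* embryo 2 or 5). The 14 calls among Zfp-named genes became 37 with DESeq2, 0 with *Xist* or in Y-linked libraries, 3 with the choroid plexus covariate, 5 at an FDR of 0.05, and 6 to 20 with 1 embryo left out (6 to 9 without wild-type embryo 1, 2 or 4 or *Lmx1a-/-* embryo 2, 4 or 5). The cause of these shifts was not tested.

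Equal embryo numbers did not pair the libraries: deviations of libraries with the same number correlated at -0.099 to 0.013. With the number as a replicate block the calls were 601, the log2 fold changes of *Zfp804b* and *Zfp804a* -5.56 and -0.53, the calls among Zfp-named genes 8 and among matrin-type genes 0.

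Of 33 genes under the naming rule besides the pair, 18 were called, and none changed sign as a called gene in 720 repeats. The calls lost numbered 16 with *Xist*, 12 in Y-linked libraries, 9 with the choroid plexus covariate, 4 under the block and 4 at an FDR of 0.05. Counts of 3 to 27 limit the mutant level of *Zfp804b*, and 4 to 88 that of *Zfp804a* in both genotypes.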
